A study of Homo sapiens with 9 samples.

Results

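The CHD remodeller family has 9 genes, CHD1 to CHD9, and all 9 were found by symbol among 19970 protein-coding genes on chromosomes 1 to 22 and X. CHD proteins are ATPases that slide, eject or space nucleosomes. Each has a pair of chromodomains, which read histone tails or hold the motor in check, in front of a SNF2-type ATPase motor. CHD1 and CHD2 act at transcribed genes. CHD3, CHD4 and CHD5 are alternative ATPases of NuRD, a complex that joins remodelling to histone deacetylation, and CHD6 to CHD9 form a further subfamily of very large proteins. CHD4 is the gene that was silenced here.

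The cells were SK-N-MC, an established Ewing sarcoma line, and all samples came from this line. The control group carried a doxycycline-inducible non-targeting hairpin, shScramble, and its genotype is labelled wildtype. The other groups carried an inducible hairpin against CHD4, either shCHD4#1 (hairpin 1 here) or shCHD4#2 (hairpin 2), and are labelled CHD4 knockdown. All 3 groups received 100 ng/ml doxycycline and were collected at 48 h, with 3 biological replicates each, 9 samples in all. Open chromatin was tagged with ATAC-seq, where a transposase inserts adapters into accessible DNA, after 100000 SK-N-MC cells had been mixed with 100 Drosophila S2 cells. What was analysed is 1 list of accessible regions per group, filed under its replicate 1. No spread between replicates could be computed, so no difference between the groups was tested, and a region list does not show how far CHD4 was silenced. The labels do not say whether the cells of a group came from 1 clone. Read depth was unknown. Gene ends of all 6 Ewing sarcoma marker genes checked were covered in every list, against 4, 3 and 3 of 6 lymphoid, endothelial and epithelial marker genes with shScramble, hairpin 1 and hairpin 2, and an open gene end does not measure expression.

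Regions were taken from the GRCh38 gene plus 20 kb on both sides, and these windows held 88 regions in the shScramble list, 108 in that of hairpin 1 and 93 in that of hairpin 2. Per list, that was 1.23 times the control number with hairpin 1 and 1.06 times with hairpin 2. The whole lists, of 85775, 122869 and 83241 regions, stood at 1.43 and 0.97 times. Of the windows' bases, 10.2% were covered with shScramble, 13.9% with hairpin 1 and 9.93% with hairpin 2. The exact 95% intervals of the family ratios, which cover counting error only, ran from 0.918 to 1.65 for hairpin 1 and from 0.781 to 1.43 for hairpin 2. They treat regions as independent, though many overlap between lists and some touch end to end, so they are not a test. Both intervals held the ratio of the whole list and a ratio of 1. With 50 kb on both sides the hairpin 2 ratio was 0.944. When each list was cut to its best-ranked regions, as many as the shortest list holds, the family ratio turned to 0.862 with hairpin 1 and was 1.07 with hairpin 2.

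**Figure D1:**
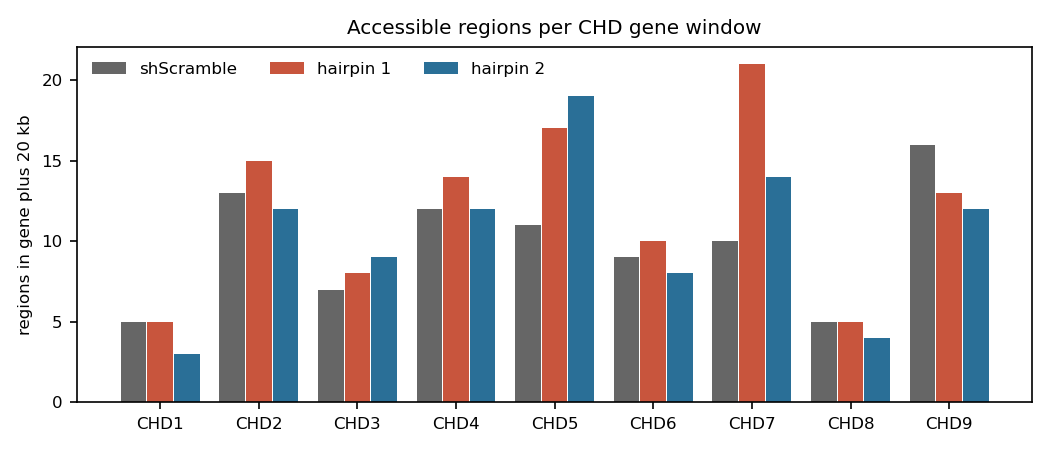
Number of accessible regions (vertical axis, regions) in each CHD gene plus 20 kb, by region list; each bar is the count in 1 list, so there are no error bars. CHD5 and CHD7 stand out, with 11 and 10 regions with shScramble, 17 and 21 with hairpin 1 and 19 and 14 with hairpin 2.

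Among the 8 paralogues of CHD4, 3 exceeded the shScramble number of regions in both hairpin lists: CHD3, CHD5 and CHD7. The same was true of 30.3% of all protein-coding genes, and of 30.2% of the 9243 genes whose window is at least as long as that of CHD3, the shortest of the family. CHD9 was the only member with fewer regions with both hairpins, which 13.0% of all genes and 13.9% of those with long windows had. Taken singly, hairpin 1 had more regions than shScramble at 6 members, against 61.1% of all genes and 66.6% of those with long windows, and fewer at 1 member, against 16.8% and 17.0%. Hairpin 2 had more at 3 members, against 34.9% and 33.8%, and fewer at 5 members, against 37.6% and 45.0%. Regions that overlapped by at least 1 bp across lists were chained into places, 101 in all, of which 53 had a region in all 3 lists, or 52.5% against 33.2% over all chromosomes. Hairpin 1 only places made up 15.8% against 29.0%, and hairpin 2 only places 9.9% against 5.44%. These shares were not tested. A place gained with both hairpins has a region in both hairpin lists and none with shScramble, and a place lost with both has the reverse. There were 9 places gained with both, which is 8.91% of the family's places against 10.0% over all chromosomes. A further 7 were lost with both, or 6.93% against 10.5%. The gained places lay at CHD2 (2), CHD4 (2), CHD5 (2) and CHD7 (3), so 3 of the 8 paralogues had at least 1. Over all protein-coding genes 43.2% had a gained place, as did 50.2% of those with long windows, and 41.4% had a lost one, as did 6 of the 9 members. The members' shares for more regions and for gained places were near the background, and among genes with long windows 55.1% had a lost place. The 3 gained places of CHD7 are a number that 7.42% of all genes and 10.3% of those with long windows reached.

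In bases covered, the order differed from that in region number. CHD3, CHD4 and CHD5 had more bases covered in both hairpin lists than in the control list, against 27.5% of all genes and 22.3% of those with long windows. CHD9 had fewer, against 21.5% and 23.8%. At CHD4 24.4% of the window was covered in the control list, against 38.2% for hairpin 1 and 33.6% for hairpin 2. CHD5 went from 12.5% to 31.6% and 25.4%, and CHD3 from 17.1% to 21.4% and 21.3%. At CHD7 coverage was 10.5%, 15.2% and 7.08%, so hairpin 2 listed more regions than the control there but covered fewer bases. Median region width in the windows was 1640 bp in the control list, against 1629 bp (hairpin 1) and 1330 bp (hairpin 2), and over the whole lists it was 1440, 1390 and 1040 bp.

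**Figure D2:**
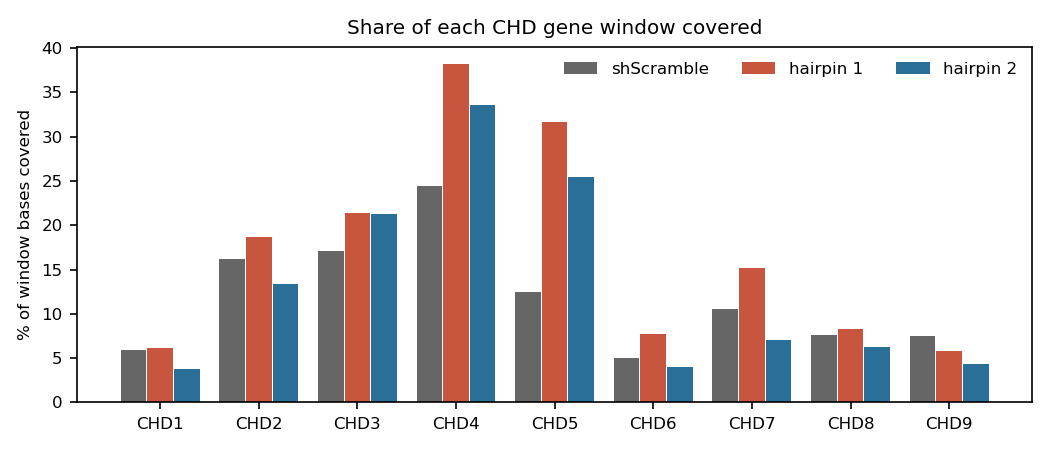
Share of each CHD gene window (gene plus 20 kb) covered by accessible regions (vertical axis, % of bases), 1 bar per region list and no replicates. CHD5 has the widest step between the control bar (12.5%) and both hairpin bars (31.6% and 25.4%), and CHD9 declines from 7.52% to 5.79% and 4.36%.

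Judged by overlap of the 250 bases before it, 1 annotated start each of CHD1, CHD4 and CHD9 differed between the lists. The start of CHD1 is the gene's upstream end. That of CHD4, at 6606451, lies 928 bp inside the gene from its upstream end at 6607379, and that of CHD9, at 53131012, lies deep in the gene. RefSeq promoter entries were found for CHD1, CHD2, CHD3, CHD4, CHD8 and CHD9, with 9 annotated starts among them. The 250 bases before the start were overlapped in all 3 lists at 6 of them, and with both hairpins but not with shScramble at the other 3. The latter pattern was found at 7.3% of the 34961 annotated starts on these chromosomes, and the former at 30.5%. No member start was overlapped with shScramble alone, which 2.44% of annotated starts were. These 3 sequences are shown because they carry that difference. They are from RefSeq, GRCh38.p14, each written 5′ to 3′ on the strand of the gene and ending at the base before the start. Capitals mark every GGAA or TTCC, the core letters of ETS sites and so of the EWSR1::FLI1 fusion of this tumour, and every CCAAT or ATTGG, the CCAAT box.
CHD1, chr5:98929008-98929257, minus strand: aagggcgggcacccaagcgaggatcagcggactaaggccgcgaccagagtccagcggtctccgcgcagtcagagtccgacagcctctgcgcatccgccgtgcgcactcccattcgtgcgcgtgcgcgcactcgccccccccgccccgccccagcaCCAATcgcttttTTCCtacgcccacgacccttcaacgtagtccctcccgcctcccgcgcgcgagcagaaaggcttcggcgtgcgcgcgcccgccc
CHD4, chr12:6606452-6606701, minus strand: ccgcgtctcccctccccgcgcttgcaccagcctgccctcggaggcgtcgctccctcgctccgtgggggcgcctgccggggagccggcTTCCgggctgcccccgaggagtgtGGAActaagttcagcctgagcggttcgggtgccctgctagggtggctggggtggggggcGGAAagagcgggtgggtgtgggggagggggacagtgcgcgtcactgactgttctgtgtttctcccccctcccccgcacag
CHD9, chr16:53130762-53131011, plus strand: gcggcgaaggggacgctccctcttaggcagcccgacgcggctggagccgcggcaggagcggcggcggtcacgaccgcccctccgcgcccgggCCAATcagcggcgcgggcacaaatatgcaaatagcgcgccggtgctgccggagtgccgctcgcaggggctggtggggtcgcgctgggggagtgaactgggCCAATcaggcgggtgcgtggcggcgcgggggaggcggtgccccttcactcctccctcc
GGAA, searched on both strands, occurred in 92.7% of all promoters of this length, with a median of 3. It was found 1 time at CHD1, 3 times at CHD4 and 0 times at CHD9. CCAAT, also searched on both strands, was in 32.0% of promoters, and was found 1, 0 and 2 times. None of the 3 held the repeat GGAAGGAA on either strand, which 3.06% of promoters had and in which each GGAA counts for the shorter motif too. CG was present 36, 21 and 33 times against a median of 11, and 70.8%, 72.0% and 74.8% of the bases were G or C. In each case shScramble regions lay close by on at least 1 side. They were 208 and 234 bp away at CHD1, 162 and 200 bp away at CHD4, and 70 bp away at CHD9. Each of these starts thus had a deposited region within 250 bases in every list.

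CHD4 itself, the silenced gene, lies on chromosome 12 from 6570082 to 6607379, on the minus strand, so its upstream end is the higher coordinate. Its window also holds parts of IFFO1, NOP2 and LPAR5. It held 12 regions in the shScramble list, 14 in that of hairpin 1 and 12 in that of hairpin 2. Of its 12 places 8 were in all 3 lists, 2 were gained with both hairpins, 1 was lost with both and 1 was in hairpin 2 only.

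Both gained places lay toward the downstream end of CHD4. The place inside the gene, near its end, also overlaps the antisense gene CHD4-AS1. Here 6571321 to 6572810 (1490 bp, row 29804) and 6572811 to 6574130 (1320 bp, row 60861) were listed with hairpin 1 and 6571751 to 6573790 (2040 bp, row 43760) with hairpin 2. The other lay in NOP2, a ribosomal RNA methyltransferase gene, where hairpin 1 had 6558681 to 6561950 (3270 bp, row 88448) and hairpin 2 had 6558651 to 6561780 (3130 bp, row 56956). The lost place, 6558141 to 6558540 (400 bp, row 27322), was 110 bp from it. Within 1 kb of the downstream end itself, 1 region was listed with each hairpin and 0 with shScramble, whose nearest region was 1262 bp away.

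The upstream end of CHD4, 6607379, lay in a region in every list, while its annotated start at 6606451 lay in one with both hairpins and not with shScramble. shScramble listed 6604881 to 6606290 (1410 bp, row 54846), 6606901 to 6607570 (670 bp, row 79431) and 6607621 to 6609960 (2340 bp, row 11462). Hairpin 1 listed 6604561 to 6606500 (1940 bp, row 91486), 6606771 to 6606970 (200 bp, row 115983), 6606971 to 6607550 (580 bp, row 21315) and 6607551 to 6609540 (1990 bp, row 856). Hairpin 2 listed 6605071 to 6606970 (1900 bp, row 16865) and 6606971 to 6609820 (2850 bp, row 632). At or directly above the upper gene end both hairpin lists had a region near the top of the list, at rows 856 and 632, where the best control region stood at row 11462. Further inside the gene, shScramble listed 6602311 to 6603520 (1210 bp, row 36877), hairpin 1 6602331 to 6603700 (1370 bp, row 9259) and hairpin 2 6602741 to 6603540 (800 bp, row 11951). Just below it, across a gap of 10 bp, was the place found in the hairpin 2 list alone, 6601261 to 6602300 (1040 bp, row 45570).

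Upstream of CHD4 lay the best-ranked control region of its window. shScramble listed 6610501 to 6612730 (2230 bp, row 11410) and 6612731 to 6615370 (2640 bp, row 315), hairpin 1 6610481 to 6616350 (5870 bp, row 115984), and hairpin 2 6610721 to 6615400 (4680 bp, row 198). The hairpin 1 region is the widest of these and stood near the foot of its list. Further out, shScramble listed 6617311 to 6618360 (1050 bp, row 5152), hairpin 1 6617531 to 6618600 (1070 bp, row 12506) and hairpin 2 6617251 to 6618360 (1110 bp, row 9527). Every list had 1 region there.

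Below the gene, in NOP2 and IFFO1, all lists shared 4 places. shScramble listed 6567001 to 6568820 (1820 bp, row 79430), hairpin 1 6565091 to 6569600 (4510 bp, row 115982) and hairpin 2 6567021 to 6569500 (2480 bp, row 78762). shScramble listed 6562971 to 6564230 (1260 bp, row 14941), hairpin 1 6562931 to 6564150 (1220 bp, row 28111) and hairpin 2 6563081 to 6563980 (900 bp, row 25590). The first of these, over NOP2 and CHD4-AS1, was widest with hairpin 1. shScramble listed 6556481 to 6557350 (870 bp, row 38952), hairpin 1 6555881 to 6556990 (1110 bp, row 115981) and hairpin 2 6555681 to 6557750 (2070 bp, row 78761). shScramble listed 6552351 to 6555340 (2990 bp, row 79429), hairpin 1 6551821 to 6555410 (3590 bp, row 5273) and hairpin 2 6552441 to 6555430 (2990 bp, row 10348). The last was among the better-ranked regions with both hairpins and at the foot of the list with shScramble. The shScramble region there has the authors' p of 0.951 that 7438 regions of that list share.

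Several wide regions over gene ends stood near the foot of a list. The lists are ordered by the authors' p-value. Of the family's regions, 15 with shScramble shared a p of 0.951, 11 with hairpin 1 a p of 0.949 and 8 with hairpin 2 a p of 0.954, the highest values in these windows. Over the whole lists 7438, 8108 and 5134 regions had that p. Among those of the family are regions over the upstream ends of CHD2, CHD4, CHD5 and CHD7. The deposited second score, whose unit is not stated, had a median of 1042, 1282 and 1051.5 in these family regions and of 319, 325 and 474 in the others. Neighbouring regions of a list can carry the same second score, as with 1042 at rows 80684 and 12151 of the shScramble list at CHD3. These medians may thus be shared with better-ranked neighbours, and no conclusion on the score of low-ranked regions is drawn. A low row position did not by itself mean a narrow region or one far from a gene end.

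**Figure D3:**
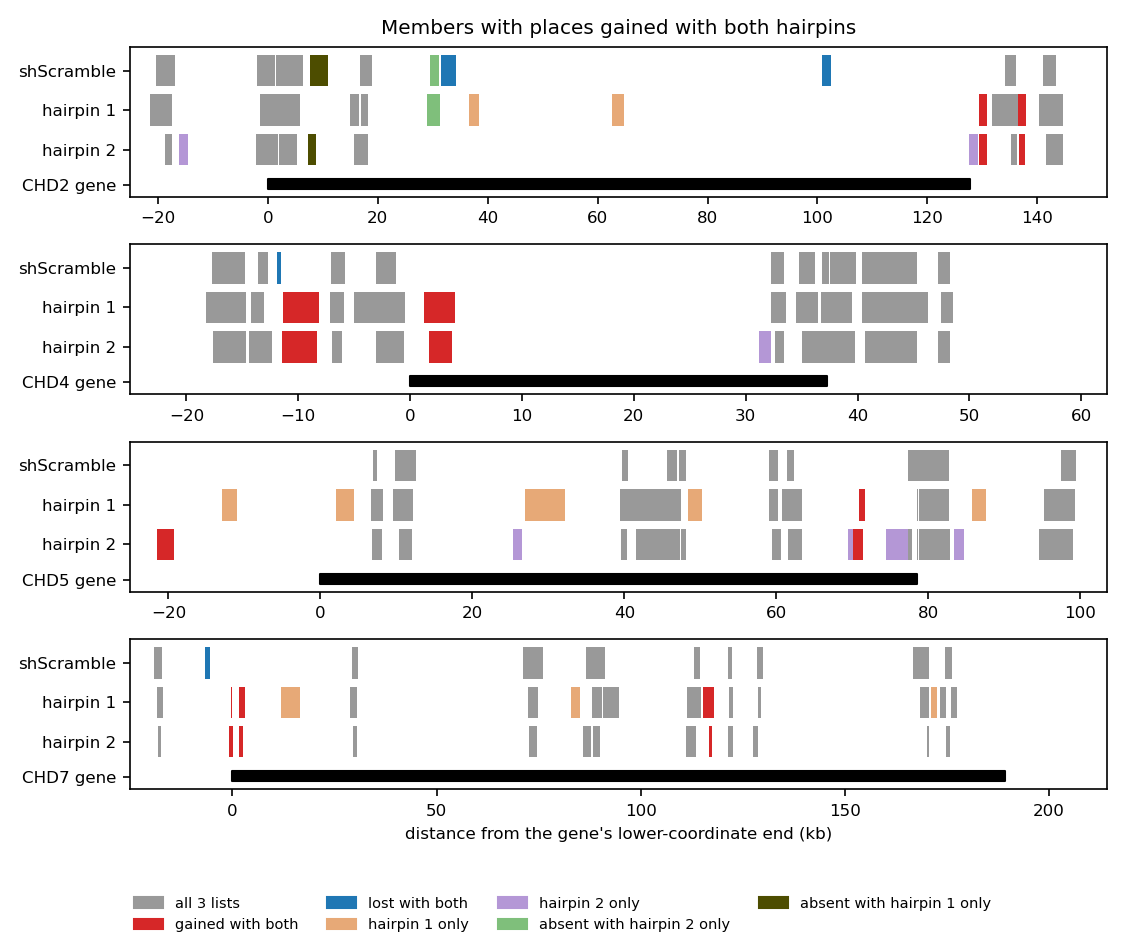
Accessible regions in the windows of CHD2, CHD4, CHD5 and CHD7, by distance from the gene's lower-coordinate end (horizontal axis, kb), 1 row of bars per region list, drawn to scale and coloured by the lists that hold the place; the black bar is the gene. The red bars are the 9 places gained with both hairpins, of which CHD7 has 3, near its start and in the gene body.

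CHD5, the neuronal NuRD ATPase and a tumour suppressor of the short arm of chromosome 1, lies on chromosome 1 from 6101787 to 6180321, with KCNAB2 and RPL22 in its window. It listed 11 regions in the shScramble list, 17 in that of hairpin 1 and 19 in that of hairpin 2, of which 6 and 8 overlapped no shScramble region. That was 35.3% and 42.1%, against 44.9% and 30.5% of the whole hairpin 1 and hairpin 2 lists and 28.7% and 22.6% over the 9 members. Of 18 places 7 were in all lists, 2 were gained with both, 5 were in hairpin 1 only, 4 in hairpin 2 only and 0 were lost. CHD5 and CHD3 were, with CHD8, the members with no lost place.

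The gained place inside CHD5 was 6172685 to 6173444 (760 bp, row 84741) with hairpin 1 and 6171907 to 6173172 (1266 bp, row 59059) with hairpin 2. It lay in the last stretch of the gene before its higher end, which is the start of CHD5 by general knowledge, since the promoter table gives no strand for it. The other gained place lay in KCNAB2 at the edge of the window, with 6080263 to 6082462 (2200 bp, row 75704). The hairpin 1 region that joins it, 6080457 to 6081374 (918 bp, row 55114), ends outside the window and was not counted in it. The 3 regions inside the window stood past the middle of their lists.

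Single-hairpin places made up 9 of the 18 places of CHD5. Hairpin 1 alone listed 6088795 to 6090814 (2020 bp, row 98430), 6103835 to 6106254 (2420 bp, row 109139) and 6128757 to 6134014 (5258 bp, row 40028). It also listed 6150197 to 6152024 (1828 bp, row 45153) and 6187545 to 6189414 (1870 bp, row 71924). The hairpin 2 list alone held 6127143 to 6128382 (1240 bp, row 5438), 6171277 to 6171906 (630 bp, row 50218), 6176213 to 6179132 (2920 bp, row 77762) and 6185187 to 6186442 (1256 bp, row 18181). The region at row 5438 had an authors' p of 0.00941 and was the best ranked of all single-hairpin regions of the family. It ended 374 bp short of the 5258 bp region that only hairpin 1 listed. Hairpin 2 alone also had the 2 regions around the gained place, so that from 6171277 to 6179132 the control list was empty and hairpin 2 had 3 places.

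The start of CHD5 was covered in each list. shScramble listed 6179157 to 6181946 (2790 bp, row 78001) and 6181947 to 6184526 (2580 bp, row 52416). Hairpin 1 listed 6180297 to 6180474 (178 bp, row 25195) and 6180565 to 6184534 (3970 bp, row 114433). Hairpin 2 listed 6179133 to 6179672 (540 bp, row 76396), 6180263 to 6180492 (230 bp, row 9095) and 6180593 to 6184702 (4110 bp, row 77763). Its short region at the gene end, 178 bp with hairpin 1 and 230 bp with hairpin 2, had no separate counterpart with shScramble. Past it, at RPL22, a ribosomal protein gene, shScramble listed 6199217 to 6201216 (2000 bp, row 657). Hairpin 1 listed 6197015 to 6199364 (2350 bp, row 103830) and 6199447 to 6201054 (1608 bp, row 901). Hairpin 2 listed 6196387 to 6198012 (1626 bp, row 14621) and 6198013 to 6200846 (2834 bp, row 679). A region at that gene was among the best 1000 rows in every list.

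Within the gene, shScramble listed 6108647 to 6109266 (620 bp, row 11335), hairpin 1 6108507 to 6109976 (1470 bp, row 3327) and hairpin 2 6108563 to 6109846 (1284 bp, row 5188). shScramble listed 6111647 to 6112626 (980 bp, row 21495) and 6112677 to 6114316 (1640 bp, row 52129), hairpin 1 6111287 to 6114006 (2720 bp, row 6093), and hairpin 2 6112153 to 6113826 (1674 bp, row 14644). Both places were better ranked with either hairpin than with the control. The broadest place in the gene held several pieces. shScramble listed 6141497 to 6142296 (800 bp, row 50090), 6147357 to 6148706 (1350 bp, row 39351) and 6148997 to 6149846 (850 bp, row 43655). Hairpin 1 listed 6141247 to 6147354 (6108 bp, row 114431) and 6147465 to 6149304 (1840 bp, row 8202). Hairpin 2 listed 6141387 to 6142152 (766 bp, row 43915), 6143363 to 6147342 (3980 bp, row 37693), 6147347 to 6149162 (1816 bp, row 7302) and 6149207 to 6149902 (696 bp, row 37694). The hairpin 1 region of 6108 bp held the first control piece and most of the gap after it, and hairpin 2 had a region of 3980 bp inside that gap. shScramble listed 6160807 to 6161976 (1170 bp, row 78000), hairpin 1 6160805 to 6161954 (1150 bp, row 114432) and hairpin 2 6161183 to 6162372 (1190 bp, row 40708). shScramble listed 6163207 to 6164086 (880 bp, row 62342), hairpin 1 6162557 to 6163824 (1268 bp, row 28947) and 6163897 to 6165234 (1338 bp, row 71306), and hairpin 2 6163367 to 6165222 (1856 bp, row 64325). The last of these was reached by all lists, with 2 pieces with hairpin 1.

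CHD3, the third of the NuRD ATPases, lies on chromosome 17 from 7884796 to 7912755, on the plus strand, among NAA38, RNF227, KCNAB3, TRAPPC1 and CNTROB. The window had 7 regions in the shScramble list, 8 in that of hairpin 1 and 9 in that of hairpin 2. These formed only 5 places, 3 in all lists and 2 in hairpin 2 only. At the upstream end of the gene and its annotated start, 7888789, the lists differed in how pieces were joined. shScramble listed 7884351 to 7885990 (1640 bp, row 80683), 7885991 to 7887910 (1920 bp, row 31460) and 7887991 to 7889930 (1940 bp, row 7205). Hairpin 1 listed 7883551 to 7884430 (880 bp, row 28180) and 7885581 to 7890210 (4630 bp, row 1951). Hairpin 2 listed 7884771 to 7885030 (260 bp, row 69763), 7885351 to 7885530 (180 bp, row 38525) and 7885581 to 7890380 (4800 bp, row 2688). The control list split this stretch into pieces that touch or nearly touch, where hairpin 1 had a region of 4630 bp and hairpin 2 a region of 4800 bp.

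At the downstream end of CHD3, shScramble listed 7911701 to 7913160 (1460 bp, row 80684) and 7913281 to 7914880 (1600 bp, row 12151). Hairpin 1 listed 7909461 to 7911850 (2390 bp, row 96927), 7912211 to 7913540 (1330 bp, row 46715), 7913781 to 7914610 (830 bp, row 40670) and 7914721 to 7915980 (1260 bp, row 8408). Hairpin 2 listed 7911651 to 7912690 (1040 bp, row 65960) and 7914591 to 7916000 (1410 bp, row 4691). In each hairpin list the best-ranked of these reached past the control regions. Further along, over KCNAB3, TRAPPC1 and CNTROB, shScramble listed 7928901 to 7931010 (2110 bp, row 80685) and 7931811 to 7933940 (2130 bp, row 3214). Hairpin 1 listed 7929461 to 7930440 (980 bp, row 117376) and 7930491 to 7934220 (3730 bp, row 3214). Hairpin 2 listed 7929371 to 7931040 (1670 bp, row 79638) and 7931271 to 7933900 (2630 bp, row 3130). Each list had 2 regions there. The hairpin 2 list alone held 7881151 to 7883450 (2300 bp, row 50674) in NAA38 and 7916001 to 7917330 (1330 bp, row 28975) in RNF227. Neither was near the top of its list. The excess of CHD3 over the control in region number rests on pieces and on these hairpin 2 places, and no place of it was gained with both.

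CHD1, which binds methylated histone H3 at active starts, lies on chromosome 5 from 98853985 to 98929007, on the minus strand. It held 5, 5 and 3 regions with shScramble, hairpin 1 and hairpin 2. Every list had a region over CHD1-DT, the divergent transcript next to its start. shScramble listed 98929491 to 98930480 (990 bp, row 8392) and 98930481 to 98931490 (1010 bp, row 35903), hairpin 1 98928841 to 98930520 (1680 bp, row 11342), and hairpin 2 98928831 to 98930440 (1610 bp, row 5629). Below the start, shScramble listed 98926591 to 98928800 (2210 bp, row 83410), hairpin 1 98926731 to 98928180 (1450 bp, row 38639) and hairpin 2 98926841 to 98928800 (1960 bp, row 81522). With either hairpin a region crossed the annotated start, and with shScramble the nearest region was 207 bp from it.

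Away from its start CHD1 had few regions. Below the gene, shScramble listed 98839751 to 98840440 (690 bp, row 49981), hairpin 1 98839681 to 98840230 (550 bp, row 47574) and hairpin 2 98839651 to 98840440 (790 bp, row 72810). Next to it hairpin 1 alone listed 98840461 to 98841460 (1000 bp, row 83703), and at the far side of CHD1-DT it alone listed 98946521 to 98948950 (2430 bp, row 78708). The lost place, also in CHD1-DT, was 98934691 to 98936610 (1920 bp, row 65221). Hairpin 2 had no region of its own. CHD1 is thus a paralogue with no gained place, and its body from 98853985 to 98926590 held no region in any list.

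CHD2, linked to epilepsy and a close relative of CHD1, lies on chromosome 15 from 92900324 to 93027996, on the plus strand. Just before it lies CHASERR, a long non-coding gene known to restrain CHD2, and beyond its end lies RGMA. CHD2 had 13 regions in the shScramble list, 15 in that of hairpin 1 and 12 in that of hairpin 2. Its 15 places fell into 5 in all lists, 2 gained with both, 2 lost with both, 2 in each hairpin alone, and 1 absent in each hairpin alone.

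Both gained places of CHD2 lay past its end. The nearer, at 1695 bp from the gene with hairpin 1 and 1795 bp with hairpin 2, was 93029691 to 93031190 (1500 bp, row 7597) and 93029791 to 93031150 (1360 bp, row 7614) respectively. It had an authors' p of 0.0104 and 0.0216. It was the only gained place of the family with a p of at most 0.05 in both hairpin lists. The other, in RGMA, a guidance molecule gene, was 93036771 to 93038280 (1510 bp, row 55782) with hairpin 1 and 93036941 to 93038110 (1170 bp, row 62867) with hairpin 2. Hairpin 2 alone also covered the gene end itself, with 93027931 to 93029550 (1620 bp, row 40036). The control list was empty from 93002841 to 93034470, a stretch that holds this end.

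Around these, in RGMA, all lists had regions. shScramble listed 93034471 to 93036490 (2020 bp, row 20078), hairpin 1 93032061 to 93036740 (4680 bp, row 92894) and hairpin 2 93035471 to 93036570 (1100 bp, row 24595). The hairpin 1 region was the widest there. shScramble listed 93041371 to 93043640 (2270 bp, row 46092). Hairpin 1 listed 93040691 to 93042780 (2090 bp, row 93639), 93042781 to 93043990 (1210 bp, row 68571) and 93043991 to 93045080 (1090 bp, row 93640). Hairpin 2 listed 93041811 to 93044970 (3160 bp, row 77214). Hairpin 1 also covered the most bases at the latter place.

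The lost places of CHD2 were inside the gene, 92931831 to 92934550 (2720 bp, row 67506) and 93001101 to 93002840 (1740 bp, row 75184). Hairpin 1 alone listed 92936901 to 92938820 (1920 bp, row 44840) and 92962871 to 92965130 (2260 bp, row 109528) in the gene body. At the place absent with hairpin 1 only, shScramble listed 92907981 to 92909070 (1090 bp, row 47219) and 92909101 to 92911190 (2090 bp, row 76921), and hairpin 2 92907661 to 92909110 (1450 bp, row 27699). Where hairpin 2 alone lacked a region, shScramble listed 92929881 to 92931540 (1660 bp, row 44050) and hairpin 1 92929311 to 92931730 (2420 bp, row 81063). The body of CHD2 thus had both additions and omissions, none of them shared by the hairpins as a gain.

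The start of CHD2 was covered in each list. shScramble listed 92898311 to 92901710 (3400 bp, row 80338) and 92901721 to 92906630 (4910 bp, row 878). Hairpin 1 listed 92898841 to 92906200 (7360 bp, row 116966). Hairpin 2 listed 92898151 to 92902090 (3940 bp, row 1960) and 92902301 to 92905580 (3280 bp, row 1617). In the control list the piece over the start itself stood at row 80338 and the next at row 878, while hairpin 1 had 1 region of 7360 bp at row 116966. At CHASERR, shScramble listed 92879911 to 92881410 (1500 bp, row 80337), 92881411 to 92882620 (1210 bp, row 8046) and 92882621 to 92883470 (850 bp, row 3424). Hairpin 1 listed 92878961 to 92881490 (2530 bp, row 15326), 92881491 to 92882630 (1140 bp, row 227) and 92882671 to 92882890 (220 bp, row 9215). Hairpin 2 listed 92881661 to 92882910 (1250 bp, row 1392). The best piece there was row 3424 with shScramble, row 227 with hairpin 1 and row 1392 with hairpin 2. Beside it, hairpin 2 alone listed 92884171 to 92885810 (1640 bp, row 39873). A further shared place lay in the gene. There, shScramble listed 92917051 to 92919220 (2170 bp, row 10946). Hairpin 1 listed 92915321 to 92916820 (1500 bp, row 67745) and 92917291 to 92918620 (1330 bp, row 21460). Hairpin 2 listed 92916061 to 92917210 (1150 bp, row 49222) and 92917231 to 92918620 (1390 bp, row 15234).

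CHD7, whose loss of function causes CHARGE syndrome, lies on chromosome 8 from 60678740 to 60868028, and its start is at the lower coordinate by general knowledge. No other protein-coding gene lies in its window. It had 10 regions in the shScramble list, 21 in that of hairpin 1 and 14 in that of hairpin 2. Of these, 9 with hairpin 1 and 3 with hairpin 2 overlapped no control region, or 42.9% and 21.4%, against 44.9% and 30.5% of the whole lists. Of its 17 places 9 were in all lists, 3 were gained with both, 4 were in hairpin 1 only and 1 was lost with both.

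CHD7 was the only member with a region within 1 kb of a gene end in both hairpin lists and none at either end with shScramble. The same was found for 6.65% of all protein-coding genes and 7.26% of those with long windows. The reverse was found at 0 members, 1.43% of all genes and 1.66% of those with long windows. The control region nearest to the start was 5570 bp away. Hairpin 1 listed 60678411 to 60678650 (240 bp, row 29553), which ended 90 bp before the gene. Hairpin 2 listed 60677941 to 60678780 (840 bp, row 82265), which crossed the start. The second gained place followed in the first part of the gene, with 60680441 to 60681860 (1420 bp, row 77400) for hairpin 1 and 60680431 to 60681430 (1000 bp, row 33665) for hairpin 2. The third lay deep in the gene, where hairpin 1 had 60793991 to 60795540 (1550 bp, row 93474) and 60795541 to 60796840 (1300 bp, row 70332) and hairpin 2 had 60795451 to 60796230 (780 bp, row 46687). None of these regions had an authors' p of at most 0.05, and the best of them were rows 29553 and 33665.

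The lost place lay before the gene, at 60672001 to 60673170 (1170 bp, row 50254), and is the control region nearest to the start. Hairpin 1 alone listed 60690551 to 60693350 (2800 bp, row 101954) and 60693351 to 60695190 (1840 bp, row 80506), which touch, as well as 60761661 to 60763960 (2300 bp, row 22847) and 60849861 to 60851440 (1580 bp, row 105667). Hairpin 2 alone had none at this gene.

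All lists shared the rest of CHD7. Before the gene, shScramble listed 60659521 to 60661490 (1970 bp, row 16855), hairpin 1 60660201 to 60661450 (1250 bp, row 30185) and 60661461 to 60661690 (230 bp, row 70459), and hairpin 2 60660411 to 60661260 (850 bp, row 22105). In its body, shScramble listed 60707931 to 60709510 (1580 bp, row 30268), hairpin 1 60707541 to 60709230 (1690 bp, row 54219) and hairpin 2 60708331 to 60709240 (910 bp, row 47223). The best-ranked control region of the gene came next. shScramble listed 60749831 to 60754790 (4960 bp, row 3782), hairpin 1 60751211 to 60753520 (2310 bp, row 7194) and hairpin 2 60751371 to 60753250 (1880 bp, row 6213). Hairpin 2 covered 1880 bp there and the control 4960 bp. shScramble listed 60765431 to 60770020 (4590 bp, row 20893). Hairpin 1 listed 60766731 to 60769380 (2650 bp, row 19668) and 60769611 to 60773450 (3840 bp, row 102839). Hairpin 2 listed 60764661 to 60766570 (1910 bp, row 48037) and 60766991 to 60768790 (1800 bp, row 13611). The 1 control region there faced 2 pieces in each hairpin list. shScramble listed 60791901 to 60793400 (1500 bp, row 6348), hairpin 1 60790181 to 60791490 (1310 bp, row 46283) and 60791661 to 60793600 (1940 bp, row 8215), and hairpin 2 60789911 to 60792260 (2350 bp, row 38157). Beyond the third gained place, shScramble listed 60800101 to 60801200 (1100 bp, row 23677), hairpin 1 60800301 to 60801320 (1020 bp, row 37604) and hairpin 2 60800271 to 60801290 (1020 bp, row 71252). shScramble listed 60807271 to 60808680 (1410 bp, row 22284), hairpin 1 60807461 to 60808230 (770 bp, row 12718) and hairpin 2 60806301 to 60807470 (1170 bp, row 28621). The hairpin 1 region was the best ranked at the latter. Toward the downstream end, shScramble listed 60845511 to 60849490 (3980 bp, row 77236), hairpin 1 60847171 to 60849330 (2160 bp, row 105666) and hairpin 2 60848821 to 60849530 (710 bp, row 65596). The control region was the widest. shScramble listed 60853321 to 60855120 (1800 bp, row 26455). Hairpin 1 listed 60852201 to 60853540 (1340 bp, row 81611) and 60854881 to 60856260 (1380 bp, row 81612). Hairpin 2 listed 60853511 to 60853990 (480 bp, row 52697) and 60854111 to 60854640 (530 bp, row 23348). Each hairpin 2 region was narrower than the control region here too.

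CHD8, a repressor of beta-catenin targets and an autism gene, lies on chromosome 14 from 21385199 to 21456123, on the minus strand, between SUPT16H and RAB2B. It had 5, 5 and 4 regions with shScramble, hairpin 1 and hairpin 2 and the fewest differences of the family. Of its 5 places 4 were in all lists and 1 was absent with hairpin 2 only. shScramble listed 21455791 to 21457360 (1570 bp, row 787), hairpin 1 21455071 to 21457450 (2380 bp, row 1616) and hairpin 2 21454731 to 21457060 (2330 bp, row 1463). That place covers the upper gene end. The start that the promoter table gives for CHD8 lies inside the gene. shScramble listed 21436081 to 21438510 (2430 bp, row 1516), hairpin 1 21436711 to 21438490 (1780 bp, row 4628) and hairpin 2 21436461 to 21438500 (2040 bp, row 2668). At the lower gene end, shared with SUPT16H, a histone chaperone gene, shScramble listed 21382941 to 21385650 (2710 bp, row 5828), hairpin 1 21383021 to 21385370 (2350 bp, row 5303) and hairpin 2 21382941 to 21385440 (2500 bp, row 4096).

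All 3 of those CHD8 places had an authors' p of at most 0.05 in every list. At the edge of the window, over RAB2B and TOX4, shScramble listed 21475611 to 21476710 (1100 bp, row 79949), hairpin 1 21475981 to 21478360 (2380 bp, row 1389) and hairpin 2 21476031 to 21478430 (2400 bp, row 1584). The control list continued there outside the window, with pieces of 850 bp at row 2855 and 620 bp at row 11896. The place that hairpin 2 lacked was in SUPT16H, where shScramble listed 21373751 to 21375010 (1260 bp, row 36332) and hairpin 1 21373431 to 21376020 (2590 bp, row 104065). CHD8 gained no region with either hairpin.

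CHD6, a large remodeller of the CHD6 to CHD9 group, lies on chromosome 20 from 41402083 to 41618377, with its start at the upper coordinate by general knowledge, and with no other protein-coding gene in its window. In the same order of lists it had 9, 10 and 8 regions, with 5 of 9 places in all lists. shScramble listed 41617621 to 41618210 (590 bp, row 18248) and 41618211 to 41619020 (810 bp, row 1287). Hairpin 1 listed 41618171 to 41619410 (1240 bp, row 1986). Hairpin 2 listed 41616821 to 41617970 (1150 bp, row 74833), 41618191 to 41618810 (620 bp, row 1842) and 41618811 to 41619920 (1110 bp, row 20507). This place covers the start, and each list had a region there within its best 2000 rows. Below the gene, shScramble listed 41391301 to 41393130 (1830 bp, row 6457). Hairpin 1 listed 41390201 to 41391320 (1120 bp, row 23507), 41391321 to 41393000 (1680 bp, row 6653) and 41393431 to 41395210 (1780 bp, row 111106). Hairpin 2 listed 41391401 to 41392730 (1330 bp, row 9560) and 41392731 to 41394330 (1600 bp, row 20939). Pieces there were more numerous with either hairpin. shScramble listed 41386871 to 41388570 (1700 bp, row 21742), hairpin 1 41386831 to 41388110 (1280 bp, row 23050) and hairpin 2 41387121 to 41388160 (1040 bp, row 35692).

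In the body of CHD6, shScramble listed 41408271 to 41410300 (2030 bp, row 23216), hairpin 1 41408321 to 41409970 (1650 bp, row 13589) and hairpin 2 41408161 to 41409610 (1450 bp, row 18492). shScramble listed 41475371 to 41477030 (1660 bp, row 53351), hairpin 1 41475011 to 41477060 (2050 bp, row 26501) and hairpin 2 41475241 to 41477240 (2000 bp, row 74296). Next to the first of these was the lost place, 41410811 to 41412590 (1780 bp, row 55607). Hairpin 1 alone listed 41509581 to 41512500 (2920 bp, row 98771) and 41572961 to 41575570 (2610 bp, row 87016). Where hairpin 2 alone lacked a region, shScramble listed 41524831 to 41526510 (1680 bp, row 58963) and 41526511 to 41527270 (760 bp, row 69691), and hairpin 1 41524421 to 41527800 (3380 bp, row 100912). CHD6 thus had no gained place, and hairpin 2 had no region of its own there.

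CHD9, the longest gene of the family, lies on chromosome 16 from 53054991 to 53327497, on the plus strand, with CHD9NB before it. It listed 16 regions in the shScramble list, 13 in that of hairpin 1 and 12 in that of hairpin 2. Of 14 places 9 were in all lists, 2 were absent with hairpin 2 only, 1 was lost with both and 1 was in each hairpin alone. Within the window no list had a region beyond 53220700, although the gene runs on to 53327497.

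At the first start of CHD9 every list had regions. shScramble listed 53053371 to 53055090 (1720 bp, row 80511) and 53055141 to 53056970 (1830 bp, row 49422). Hairpin 1 listed 53054561 to 53056270 (1710 bp, row 46253). Hairpin 2 listed 53053691 to 53054920 (1230 bp, row 79513) and 53055511 to 53056680 (1170 bp, row 47440). The start itself lay in a region with shScramble and hairpin 1 and 71 bp from one with hairpin 2. At the internal start whose sequence is shown above, shScramble listed 53131081 to 53131720 (640 bp, row 36950), hairpin 1 53130641 to 53131070 (430 bp, row 28671) and hairpin 2 53130551 to 53131100 (550 bp, row 16352). The control region began past that start, while both hairpin regions crossed it. A region also covered the later pair of annotated starts in each list. shScramble listed 53207521 to 53209070 (1550 bp, row 10281), hairpin 1 53207521 to 53208740 (1220 bp, row 19689) and hairpin 2 53207521 to 53208720 (1200 bp, row 12277).

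Between the first and the internal start lay a cluster of shared places. shScramble listed 53084951 to 53086660 (1710 bp, row 6360), hairpin 1 53084811 to 53086770 (1960 bp, row 8445) and hairpin 2 53085871 to 53086570 (700 bp, row 19821). shScramble listed 53091221 to 53092690 (1470 bp, row 8672), hairpin 1 53091041 to 53092500 (1460 bp, row 117182) and hairpin 2 53091091 to 53092760 (1670 bp, row 5242). shScramble listed 53092981 to 53094840 (1860 bp, row 2403), hairpin 1 53092911 to 53094640 (1730 bp, row 720) and hairpin 2 53093521 to 53094630 (1110 bp, row 3690). The last of these was the best-ranked place of CHD9 in every list. shScramble listed 53095941 to 53098660 (2720 bp, row 80512), 53098661 to 53099780 (1120 bp, row 46954) and 53099841 to 53100370 (530 bp, row 24713). Hairpin 1 listed 53098621 to 53100300 (1680 bp, row 20478). Hairpin 2 listed 53098611 to 53100300 (1690 bp, row 18678). Here the control had 3 pieces and each hairpin 1. Further in, shScramble listed 53219021 to 53220700 (1680 bp, row 17604), hairpin 1 53219201 to 53220650 (1450 bp, row 32887) and hairpin 2 53219591 to 53220340 (750 bp, row 36472). The control region was the best ranked and widest there. Before the gene, in CHD9NB, shScramble listed 53040611 to 53042580 (1970 bp, row 80510) and 53042611 to 53043980 (1370 bp, row 41288). Hairpin 1 listed 53040661 to 53042640 (1980 bp, row 117181) and 53043431 to 53044800 (1370 bp, row 13513). Hairpin 2 listed 53041411 to 53042230 (820 bp, row 4997) and 53043491 to 53044930 (1440 bp, row 17824).

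The lost place of CHD9 was 53159651 to 53160740 (1090 bp, row 44070). Hairpin 2 alone lacked a further pair. shScramble listed 53080231 to 53081310 (1080 bp, row 50913) and hairpin 1 53080311 to 53081640 (1330 bp, row 73229). shScramble listed 53170321 to 53171490 (1170 bp, row 47823) and hairpin 1 53170121 to 53170960 (840 bp, row 45208). Hairpin 1 alone listed 53071381 to 53072320 (940 bp, row 74220) and hairpin 2 alone 53045001 to 53046280 (1280 bp, row 51111). CHD9 had a lost place under 10 of 11 alternative ways of choosing or counting regions. CHD4 and CHD5 each had a gained place under as many. The share of all genes that did so was not counted. Among these ways, the filter on width and on the sign of the second score changed no number of gained or lost places in the family.

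**Figure D4:**
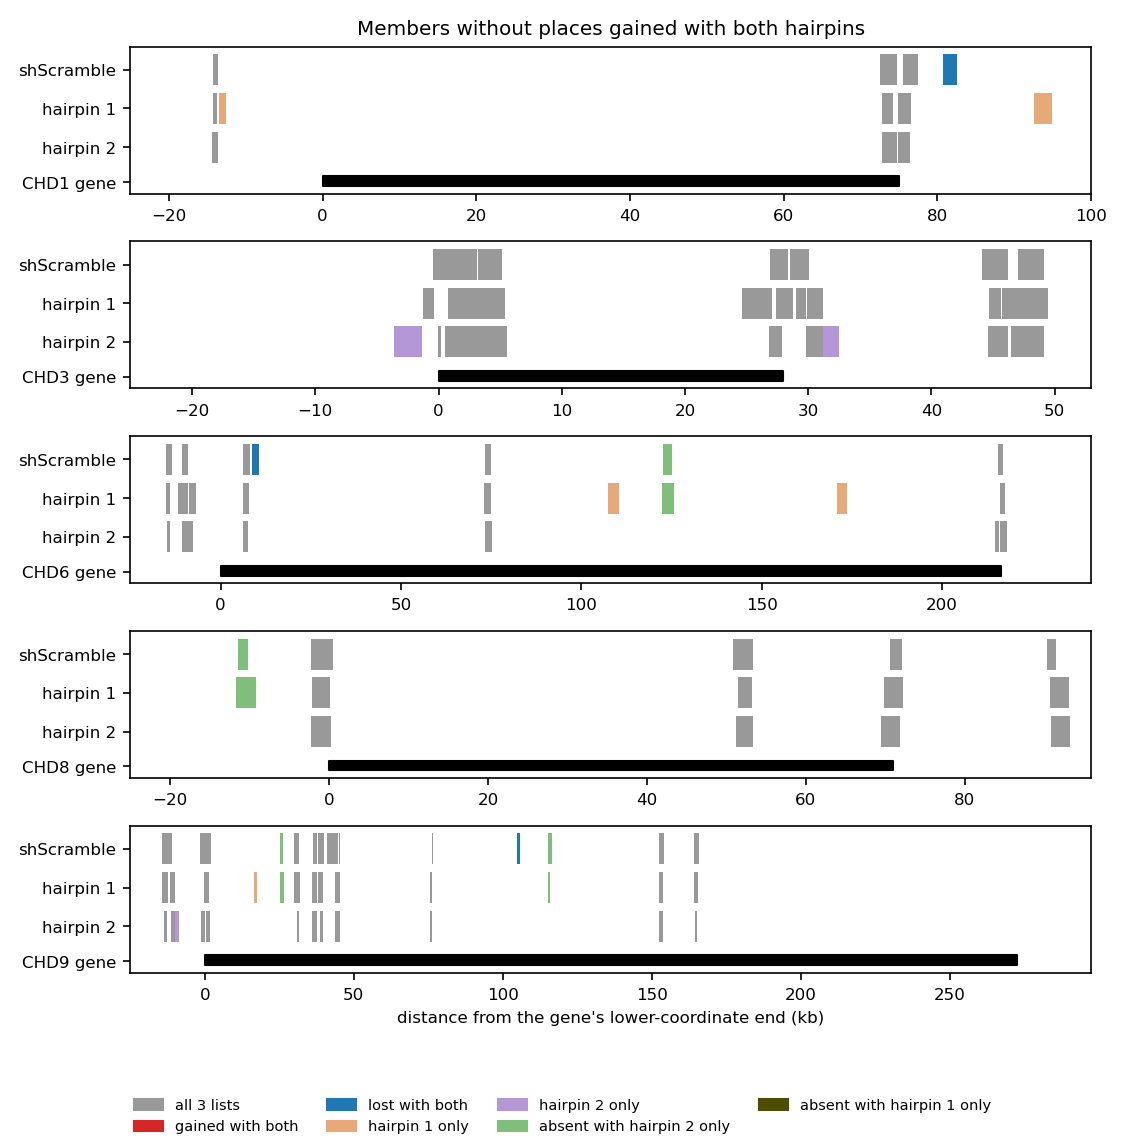
Accessible regions in the windows of CHD1, CHD3, CHD6, CHD8 and CHD9, drawn to scale by distance from the gene's lower-coordinate end (horizontal axis, kb), 1 row of bars per region list, coloured by the lists that hold the place; the black bar is the gene. No bar is red, since no place here was gained with both hairpins, and at CHD9 the upper row has 16 bars against 13 and 12.

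Places that differed between the lists stood lower in them than places that did not. Regions at places in all 3 lists had a median row position of 25.1% of the list, counted from the best, and 72 of 223 had an authors' p of at most 0.05. Regions at gained places stood at 57.2% in the median, with 2 of 19 at such a p, and both belong to the CHD2 place past the gene end. Regions at lost places stood at 64.8%, with 0 of 7. Hairpin 1 only regions stood at 66.8%, with 0 of 16, and hairpin 2 only regions at 51.4%, with 1 of 10, the CHD5 region at row 5438.

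**Figure D5:**
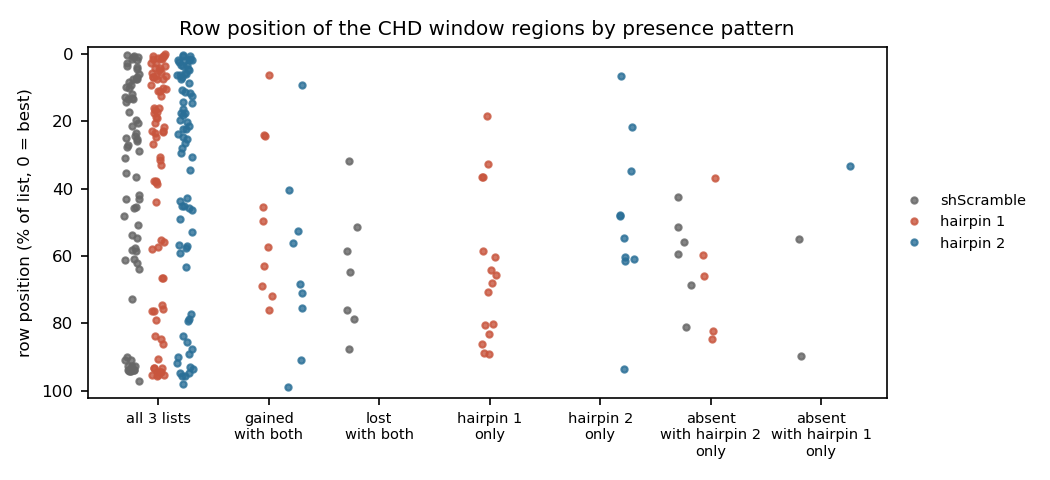
Row position of each region in the CHD windows (vertical axis, % of its list, with the best at the top) by the pattern of lists that hold its place (horizontal axis); each point is 1 region, coloured by list and spread sideways for legibility. Points at shared places reach the top of the axis, while points at lost places (median 64.8%) and hairpin 1 only places (median 66.8%) begin at 31.9% and 18.6%.

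Over the family, 22.7% of the shScramble regions, 25.9% of those of hairpin 1 and 29.0% of those of hairpin 2 had an authors' p of at most 0.05, against 12.6%, 11.9% and 13.1% of the whole lists. At that threshold the family held 20, 28 and 27 regions. The median member window held 10 regions in the shScramble list, 13 in that of hairpin 1 and 12 in that of hairpin 2, and the median over all protein-coding genes was 4, 6 and 4. Per 100 kb of window, the family medians were 5.12, 8.95 and 6.11 and those of all genes 5.12, 6.92 and 4.94. Among the 9243 genes with long windows the medians were 5, 7 and 5 regions, and 4.06, 5.32 and 3.72 per 100 kb. The family medians were above those of the genes with long windows in every list, also with shScramble. Against all protein-coding genes the shScramble median per 100 kb was the same, at 5.12.

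Other remodeller genes were counted in the same way. Of 22 other SNF2-type ATPase genes, among them the BAF motors SMARCA2 and SMARCA4 and the ISWI motors SMARCA1 and SMARCA5, 7 had more regions in both hairpin lists than in the control list and 1, SHPRH, had fewer. Their windows held 100 regions in the shScramble list, 157 in that of hairpin 1 and 92 in that of hairpin 2, or 1.57 and 0.92 times the control. Of 12 partner subunits of CHD4 in NuRD, 4 had more with both hairpins, RBBP4, MTA1, MBD3 and GATAD2A, and 2 had fewer, HDAC2 and MTA2. These genes are named after their values were seen. Among all protein-coding genes, 30.3% exceeded the control count in each hairpin list and 13.0% fell short of it in each. The 7 of 22 and 4 of 12 genes with more regions were near the first of these shares, which was not tested. The windows of the 12 partner genes held 78, 120 and 85 regions, or 1.54 and 1.09 times. Beside these, the CHD family had the lowest ratio with hairpin 1, at 1.23, and stood between the other lists with hairpin 2, at 1.06. These differences between gene lists were not tested.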

How the data were processed

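ATAC-seq region lists were used, 1 for each of 3 groups, each group having 3 biological replicates. Whether a list combines its replicates, the peak caller, any shift of read ends for Tn5 and any scaling to the Drosophila cells were not given in the sources used here. Per the submitters' processing notes, the builds were GRCh38 and dm6, and the tools named are deepTools 3.2.1, SAMtools 1.9, BWA, FastQC 0.11.7 and Trimmomatic 0.36, in no stated order. Each deposited region has a score from 1 to 1000 and a second score without a stated unit. The deposited p-value and q-value are the authors' own per region, and the rows are sorted by p-value. Precision is limited by the number of lists, and read depth is unknown.

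Gene positions came from RefSeq (GRCh38.p14). Regions overlapping a gene plus 20 kb on both sides were counted, and regions overlapping by at least 1 bp across lists were chained into places (Python 3.11.15, pandas 2.3.3). Overlap counting was tested on simulated data. Both hairpins are set against the same shScramble list, so their differences share it. Regions named are all those in the windows of CHD1 to CHD9. The members and gene lists were chosen with earlier results of these data known. Alternatives varied p, rank, overlap, width, window and joining of regions. Those on joining were chosen after seeing the data.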

Additional observations from a re-analysis of the deposited data

Results flagged for a closer look

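At 2 members the hairpins moved apart in region number. CHD2 had 2 regions more than shScramble with hairpin 1 and 1 fewer with hairpin 2, a signed difference of -1. CHD6 had 1 more with hairpin 1 and 1 fewer with hairpin 2, again -1. Over all protein-coding genes, hairpin 1 had more regions than shScramble at 61.1% and hairpin 2 had fewer at 37.6%. The share of genes with both together was not counted. With 1 list per group the difference between the hairpins was not tested. The whole hairpin 1 list holds 1.43 times as many regions as the control list and the hairpin 2 list 0.97 times, and the part of list length in these differences was not tested.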

How the results depend on the processing

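Places gained with both hairpins numbered 9. They numbered 15 when an overlap had to cover at least 50% of the shorter region, 16 with 50 kb on both sides, 5 in the gene body alone and 1, the CHD2 place past the gene end, when presence required a deposited p up to 0.05 and absence was judged over all regions. The 7 lost places became 12, 13, 4 and 0 under these settings, 1 among regions with p up to 0.05, 3 among the top 20000 rows of each list and 4 with 5 kb on both sides. Members with a gained place numbered 4, but 7 under the 50% overlap and 1 under the p rule for presence. With each list reduced to the length of the shortest, paralogues with more regions with both hairpins went from 3 to 1, and the hairpin 1 ratio from 1.23 to 0.862, a reversal. The hairpin 2 ratio reversed from 1.06 to 0.944 with 50 kb on both sides. The median number of regions per member and list, 11, became 3 at a p of at most 0.05, 4 in the best 20000, 7 with 5 kb and 6 in the gene body. The cause was not tested. Over 10 alternatives CHD5 had more regions with both hairpins in 9, CHD7 in 8 and CHD3 in 5. These tallies include the 50% overlap rule, which acts on places and cannot alter a region number. They also include the filter on width and on the sign of the second score, which left every member's count as it was. How many of all genes reach such tallies was not counted. The p rule for presence gives no ratio, paralogue count or median.

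No paired analysis was possible because each group has 1 region list, and leaving out a replicate was not possible for the same reason. Signal over background was not analysed here, so a place without a region is only a place the authors did not list.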

Other observations

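Some regions in the lists touch end to end, so a region number also depends on where a stretch was split. With touching regions joined, the family windows held 79 regions in the shScramble list, 99 in that of hairpin 1 and 86 in that of hairpin 2, against 88, 108 and 93 as deposited.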
